A study of Mus musculus with 27 samples.

Results

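Denervation response regulators are described here as 6 genes, Hdac4, Hdac9, Dach2, Runx1, Gadd45a and Ncam1, read from the table of 54532 mouse genes by an exact match of the gene name. The genes were chosen for their known part in denervated muscle. Nerve supply was neither removed on purpose nor measured in these samples, so the gene set is named for what its members are known for and not for a state of the tissue. RNA was sequenced from the tibialis anterior muscle of 8-week-old male C57BL/6 mice, either without injury or after volumetric muscle loss (VML), in which 40% of the muscle was excised. The groups held 5 uninjured samples, 5 samples each from days 3 and 21 after the operation, and 6 each from days 7 and 14. The public design text describes the excision as unilateral and the methods of the study as bilateral, and the labels do not say which animal or leg a sample came from, so p-values measure the spread between these labelled samples. Expression was deposited as FPKM, fragments scaled by gene length and sequencing depth, which puts genes of different length on one scale. Between 14376395 and 24436763 reads per sample (median 17398586) lay behind the values.

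A muscle fibre that loses its nerve switches on genes that electrical activity normally keeps silent, including the subunits of the acetylcholine receptor. Class IIa histone deacetylases (HDACs) are repressors that move between cytoplasm and nucleus with activity: Hdac4 accumulates after denervation and represses Dach2, a corepressor that holds synaptic genes down in innervated fibres, while Hdac9 restrains the same genes in innervated muscle. Runx1 is a DNA-binding factor that is induced in denervated fibres and limits their wasting, Gadd45a is a stress-induced nuclear protein that takes part in denervation atrophy, and Ncam1 is an adhesion molecule that spreads over the surface of denervated fibres and is also carried by myoblasts, newly formed fibres and Schwann cells.

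Of the 6 genes, Runx1, Gadd45a and Ncam1 were higher than in uninjured muscle at all 4 time points in the deposited FPKM (limma adjusted p under 0.05). Hdac4 was higher at days 14 and 21. At day 21 only Gadd45a was still called with FPKM rescaled to a common sum or recomputed on the reads counted in each sample. With no filter on low values no day 21 call remained, and Gadd45a at day 3 was lost as well. Among all genes tested, 23.4% were called higher at day 3 and 1.74% at day 21. Runx1 was 26.2-fold higher at day 3 and 18.7-fold higher at day 21 as a ratio of mean FPKM, Gadd45a 3.92-fold at day 3 and 11.6-fold at day 14, and Ncam1 13.5-fold at day 3 and 5.85-fold at day 21. In the deposited FPKM Hdac4 was 0.944-fold the uninjured level at day 3 and 2.42-fold at day 14. Hdac9 and Dach2 had a mean FPKM of at most 0.320 in every group and failed the filter on low values, which asked for 5 or more samples with an FPKM of 0.5 or more, so they were not part of the test across genes. The 4 other genes passed the filter, Runx1 only through injured samples, since its highest uninjured FPKM was 0.269. A gene admitted in that way had to differ between groups, so the call of Runx1 against uninjured muscle adds nothing to its values. Ncam1 had uninjured samples on both sides of 0.5 FPKM (0.252 to 0.534), so it also needed injured samples to reach 5. Some samples stood apart from their groups: at day 7 replicates 3 and 6 lay near the uninjured level for Hdac4, Gadd45a and Runx1 while replicate 5 combined low Hdac4 with high Runx1 and Ncam1, and D3 replicate 5 was the lowest of its group for every member.

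The 6 genes lie on 6 chromosomes of GRCm38, the build whose GENCODE M21 gene coordinates match all 6 in the deposited table. Hdac4 (ENSMUSG00000026313) spans chr1:91928779-92195699, Hdac9 (ENSMUSG00000004698) chr12:34047580-34917095, Runx1 (ENSMUSG00000022952) chr16:92601466-92826149, Gadd45a (ENSMUSG00000036390) chr6:67035096-67037457 and Ncam1 (ENSMUSG00000039542) chr9:49502136-49798925, all on the minus strand, and Dach2 (ENSMUSG00000025592) chrX:113297510-113836386 on the plus strand. All 6 are protein-coding. The libraries did not keep strand and each gene overlaps at least 1 other annotated gene, of which E230016M11Rik at Gadd45a (highest FPKM 1.10) and Gm26626 at Runx1 (0.514) had the most reads per length. A gene-level FPKM adds all transcripts of a gene, so the short form of Hdac9 or the alternative promoters of Runx1 are not separated.

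RefSeq promoter windows on GRCm38.p6, from 250 bases before to 50 after a transcription start, were found for 5 of the 6 genes, Ncam1 being the one without. The windows of Runx1, Gadd45a and Hdac4 are printed because these are the transcriptional and stress regulators whose levels moved, each 5′ to 3′ on the gene's own minus strand. Capitals mark the E-box (CANNTG, read by basic helix-loop-helix factors), and in Runx1 also the Runx motif (TGTGGT on either strand, here as its complement near the end). The search also covered the AP-1 motif (TGANTCA) and the Mef2 consensus, on both strands.
Runx1, chr16:92826025-92826324: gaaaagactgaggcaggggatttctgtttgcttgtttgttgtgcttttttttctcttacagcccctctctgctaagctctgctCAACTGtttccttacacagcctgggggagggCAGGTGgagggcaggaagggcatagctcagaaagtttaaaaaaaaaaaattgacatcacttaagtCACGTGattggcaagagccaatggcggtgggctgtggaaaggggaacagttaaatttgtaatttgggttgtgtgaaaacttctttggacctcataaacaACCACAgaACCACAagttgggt
Gadd45a, chr6:67037358-67037657: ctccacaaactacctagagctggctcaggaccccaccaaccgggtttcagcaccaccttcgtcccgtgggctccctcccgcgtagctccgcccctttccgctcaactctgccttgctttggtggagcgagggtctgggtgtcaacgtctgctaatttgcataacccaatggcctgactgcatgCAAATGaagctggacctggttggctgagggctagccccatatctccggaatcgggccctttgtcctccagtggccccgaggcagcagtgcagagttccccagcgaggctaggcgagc
Hdac4, chr1:92180292-92180591: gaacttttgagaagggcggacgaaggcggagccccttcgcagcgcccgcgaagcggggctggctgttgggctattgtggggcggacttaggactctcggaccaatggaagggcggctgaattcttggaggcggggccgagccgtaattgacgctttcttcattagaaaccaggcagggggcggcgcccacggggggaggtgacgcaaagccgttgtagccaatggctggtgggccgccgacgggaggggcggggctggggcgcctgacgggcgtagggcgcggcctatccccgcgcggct
The Runx1 window held 3 E-boxes, at -167, -136 and -71 from the start, and 2 Runx motifs, at 29 and 37 after it. The Gadd45a window held 1 E-box at -67, and the Hdac4 window held none of the 4 motifs at a GC content of 68%. The other Runx1 window, chr16:92697280-92697579, also held none, at a GC content of 69%. Among 32851 windows of the same length, 72.3% held an E-box, 16.8% a Runx motif, 7.81% an AP-1 motif and 3.19% a Mef2 consensus, so an E-box is the common case. A match is only a match of letters.

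In the deposited FPKM Hdac4, the deacetylase at the head of the pathway, was the late riser of the set, a timing that changed with the scaling. In uninjured muscle its FPKM was 1.62, 2.20, 2.88, 1.95 and 2.44 in replicates 1 to 5, and at day 3 it was 2.02, 2.26, 2.09, 2.57 and 1.52. Of the day 3 samples 4 lay inside the uninjured range and 1 below it. At day 7 the values were 5.98, 5.92, 1.75, 6.42, 1.18 and 1.87. Replicates 1, 2 and 4 lay above every uninjured sample, replicates 3 and 6 within their range and replicate 5 below it. At day 14 the FPKM ran from 4.0 over a median of 5.35 to 6.76, and at day 21 the samples had 5.81, 6.40, 3.77, 6.74 and 3.69. Every sample of days 14 and 21 lay above the highest uninjured one. From the highest mean to the lowest the order was day 14 (5.36 ± 0.988, SD, n = 6), day 21 (5.28 ± 1.46, n = 5), day 7 (3.85 ± 2.49, n = 6), uninjured (2.22 ± 0.480, n = 5) and day 3 (2.09 ± 0.382, n = 5), and no neighbours in it differed past the threshold.

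In the limma test on log2(FPKM + 1), on which scale folds of low genes are understated, Hdac4 differed from uninjured muscle by -0.05 ± 0.27 (SE) at day 3 (adjusted p 0.892, 95% interval -0.60 to 0.50) and by 0.42 ± 0.26 at day 7 (adjusted p 0.217, interval -0.10 to 0.95). It rose by 0.98 ± 0.26 at day 14 (limma adjusted p 0.00937) and by 0.94 ± 0.27 at day 21 (0.0483), where 6 of 6 and 5 of 5 samples were higher. Between time points, Hdac4 was higher at day 14 than at day 3 by 1.03 (limma adjusted p 0.00581) and higher at day 21 than at day 3 by 1.0 (0.00787). Under TPM, in which all FPKM of a sample are rescaled to the same sum, both were lost (0.80, limma adjusted p 0.107, and 0.53, 0.248), and with FPKM recomputed on the reads counted in each sample the second was lost (0.65, 0.118). The day 21 call was close to the threshold: leaving out 17 of the 27 samples, one at a time, took it above, up to an adjusted p of 0.121 without D21 replicate 2. It was also lost with quantile normalization (0.86, limma adjusted p 0.0979) and under TPM (0.245). The same held on the reads counted in each sample (0.110), with voom weights (0.0588) and with no filter on low values (0.199). Under TPM the day 3 difference changed sign to 0.52, beside a median of 0.51 over all genes tested under that scaling. The day 7 difference passed the test under TPM (0.97, median of all genes 0.48), on the reads counted in each sample (0.82, median 0.36) and with sample quality weights (0.81).

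**Figure D1:**
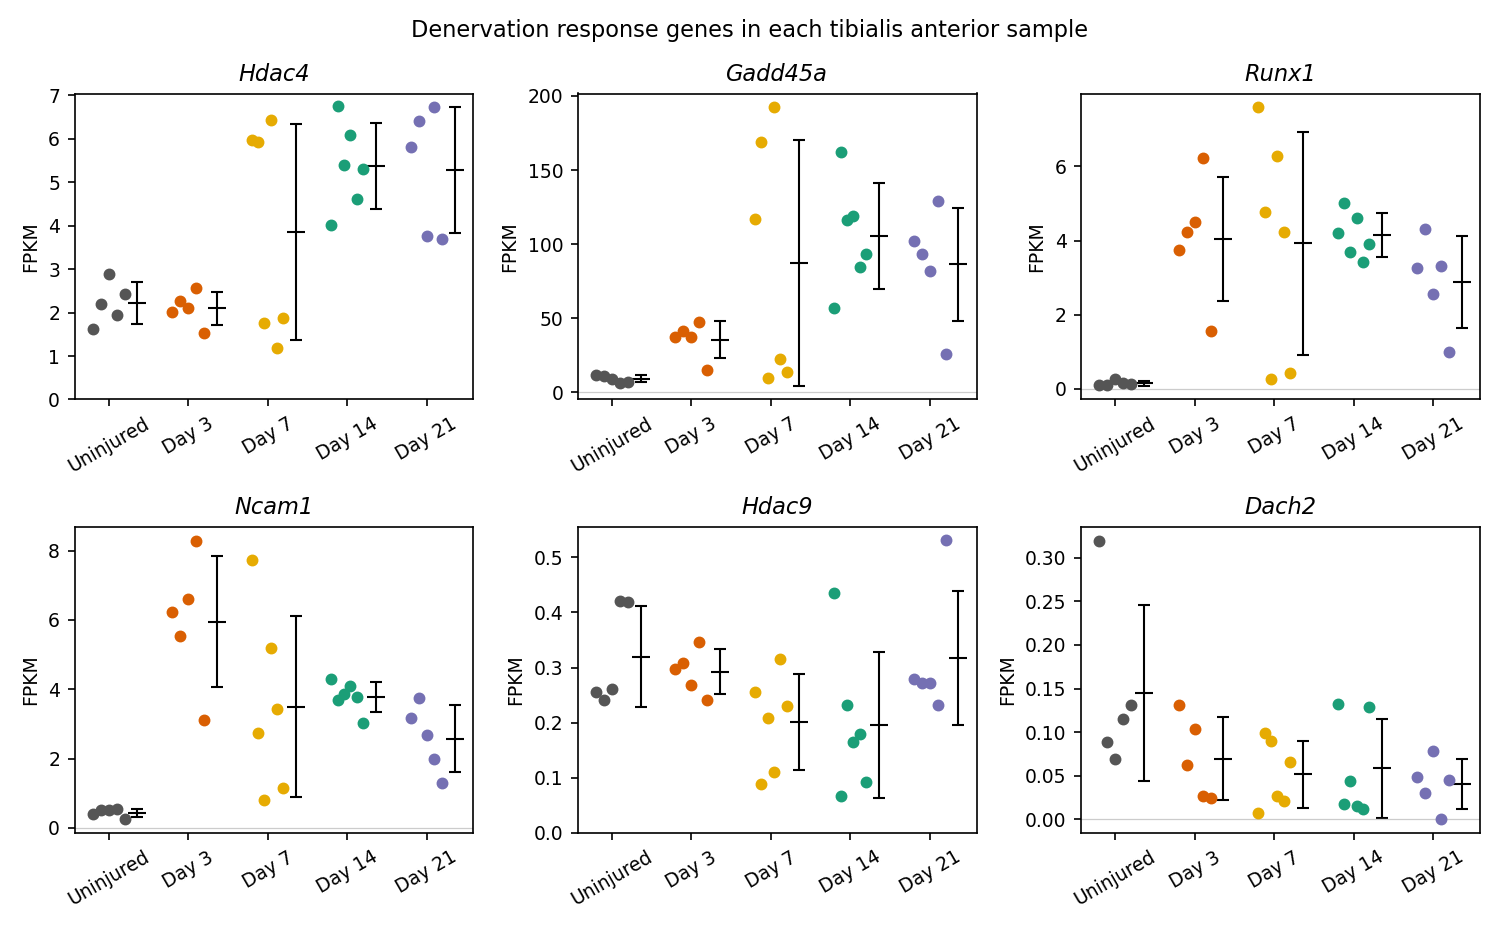
FPKM of each of the 6 genes (y axis, linear and per gene) in each of the 27 samples (points), by group on the x axis, with the group mean and SD as a bar beside the points. Hdac4 at day 7 splits into 3 samples between 5.92 and 6.42 and 3 between 1.18 and 1.87, whereas all 6 samples at day 14 lie at 4.0 or above.

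Gadd45a, the stress-induced nuclear protein of the atrophy programme, reached the highest level of the 6 genes. In uninjured muscle its FPKM was 11.7, 11.2, 9.08, 6.17 and 7.09, and at day 3 it was 37.2, 41.1, 37.2, 47.6 and 14.7. All 5 day 3 samples lay above the uninjured ones, with replicate 5 well below the other 4. At day 7 the values were 117, 169, 9.42, 192, 22.2 and 13.9. The day 7 group therefore spanned a 20.4-fold range, with replicates 1, 2 and 4 high and replicate 3 inside the uninjured range. At day 14 it ran from 57.0 over a median of 105 to 162 and at day 21 it was 102, 93.0, 82.1, 129 and 25.5. No sample of days 14 and 21 overlapped the uninjured group, and replicate 5 at day 21 stood apart below the others. The order of means was day 14 (105 ± 36, SD, n = 6), day 7 (87.3 ± 82.8, n = 6), day 21 (86.3 ± 38.2, n = 5), day 3 (35.6 ± 12.4, n = 5) and uninjured (9.06 ± 2.46, n = 5), in which only day 3 and uninjured, as neighbours, differed past the threshold.

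On the log2 scale Gadd45a rose at the 4 times in turn by 1.80 ± 0.62 (limma adjusted p 0.0209), 2.32 ± 0.59 (0.00549), 3.37 ± 0.59 (0.000643) and 2.98 ± 0.62 (0.00959). By size of increase it ranked 495 of 14630 genes at day 3, 67 at day 7, and 12 at each later time. These ranks favour abundant genes, since the scale understates folds of low ones. The larger means at the later times were not called against day 3 in the test over all samples: the difference was 1.57 between days 14 and 3 (limma adjusted p 0.0660, interval 0.34 to 2.79) and 1.18 between days 21 and 3 (0.168, interval -0.10 to 2.45). The difference between days 14 and 3 was called in other fits, with limma adjusted p of 0.00539 with sample quality weights, 0.00386 with only these groups, 0.0233 and 0.0401 with blocks by replicate number and letter, and 0.0376, 0.0463 and 0.0486 without D7 replicates 3, 4 and 6 in turn. Days 21 and 3 differed with sample quality weights (0.00811). The call at day 3 against uninjured muscle was lost without D3 replicate 4 (limma adjusted p 0.0520) and with no filter on low values (0.0989).

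Runx1, the DNA-binding factor induced in denervated fibres, went from low counts to several FPKM. The uninjured samples had 0.106, 0.111, 0.269, 0.149 and 0.136 FPKM, from 17 to 38 reads each. At day 3 the samples had 3.73, 4.22, 4.50, 6.22 and 1.56 FPKM, from 400 to 1704 reads. The lowest day 3 sample was 5.80 times the highest uninjured one. At day 7 the values were 7.59, 4.76, 0.254, 6.28, 4.24 and 0.440, so that replicate 3 lay inside the uninjured range and replicate 6 just above it. At day 14 the FPKM lay between 3.42 and 5.02 with a median of 4.06, and at day 21 it was 3.26, 4.32, 2.56, 3.30 and 0.983. Day 14 was the most even of the injured groups, with a coefficient of variation of 14.5% against 76.7% at day 7. The order of means was day 14 (4.14 ± 0.599, SD, n = 6), day 3 (4.05 ± 1.67, n = 5), day 7 (3.93 ± 3.01, n = 6), day 21 (2.88 ± 1.23, n = 5) and uninjured (0.154 ± 0.0666, n = 5), and only the last neighbours differed past the threshold.

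As log2(FPKM + 1), Runx1 was higher than in uninjured muscle by 2.05 ± 0.40, 1.75 ± 0.38, 2.15 ± 0.38 and 1.68 ± 0.40 at days 3, 7, 14 and 21, with limma adjusted p of 0.00021, 0.00172, 0.000643 and 0.0188. These differences are values of a gene that entered the test through its injured samples. Between time points no difference of Runx1 passed the test, the widest being -0.47 ± 0.38 between days 21 and 14 (limma adjusted p 0.784, interval -1.25 to 0.31). Without D21 replicate 2 the day 21 limma adjusted p was 0.0638. The day 21 call was also lost under TPM (0.186), on own read totals (0.0886), with voom weights (0.104) and with no filter on low values (0.101).

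Ncam1, the adhesion molecule, was highest early. Uninjured samples had 0.407, 0.503, 0.502, 0.534 and 0.252 FPKM, and day 3 samples 6.23, 5.53, 6.61, 8.28 and 3.11. The groups did not overlap, the lowest day 3 sample being 5.82 times the highest uninjured one. At day 7 the values were 7.73, 2.73, 0.813, 5.18, 3.42 and 1.15. Ncam1 was the only one of the 6 genes with all day 7 samples above the uninjured range, replicate 3 by a factor of 1.52. At day 14 the range was 3.03 to 4.28 with a median of 3.82, and at day 21 the samples had 3.16, 3.74, 2.68, 1.98 and 1.29.

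Ncam1 rose at the 4 times in turn by 2.23 ± 0.30 (limma adjusted p 3.47e-06), 1.44 ± 0.28 (0.000842), 1.73 ± 0.28 (0.000349) and 1.27 ± 0.30 (0.0179). Among the 4 tested genes it was the only one called lower at a later time than at day 3, by -0.96 ± 0.30 at day 21 (limma adjusted p 0.0190). That call was lost without D3 replicate 4 (limma adjusted p 0.0663) or without D21 replicate 5 (0.0579), and with no filter on low values (0.0830). The call at day 21 against uninjured muscle was lost without D21 replicate 2 (limma adjusted p 0.0614). It was also lost under TPM (0.226), on own read totals (0.102) and with no filter (0.0924). The order of means was day 3 (5.95 ± 1.88, SD, n = 5), day 14 (3.79 ± 0.432, n = 6), day 7 (3.50 ± 2.61, n = 6), day 21 (2.57 ± 0.962, n = 5) and uninjured (0.440 ± 0.115, n = 5), in which neighbours did not differ past the threshold except day 21 and uninjured.

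**Figure D2:**
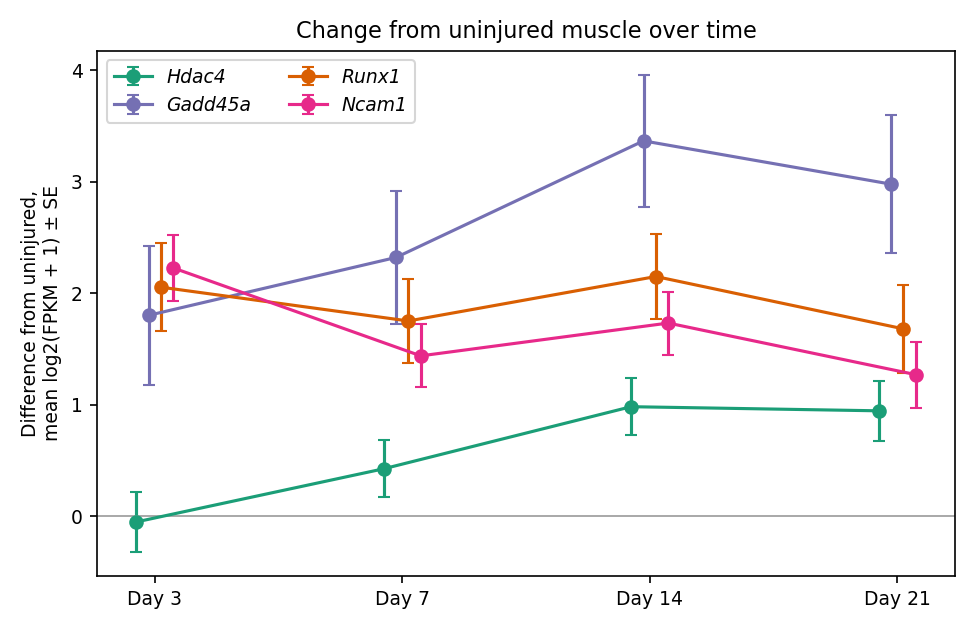
Difference from uninjured muscle in mean log2(FPKM + 1) on the y axis at each day after injury on the x axis for the 4 tested genes, with bars of 1 standard error from limma. Ncam1 has its highest value at day 3 (2.23) and Gadd45a at day 14 (3.37), while Hdac4 starts at -0.05.

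Runx1 aside, which entered the test through its injured samples, 3 members were tested, and 2 of the 3 (Gadd45a, Ncam1) were called higher at days 3 and 7 and all 3 at days 14 and 21. Hdac9 and Dach2 are not in these counts. Ncam1 is kept in them, although it passed the filter partly through injured samples. Among all 14630 genes tested, the share called higher was 23.4% for day 3, 15% for day 7, 9.02% for day 14 and 1.74% for day 21. Calls in either direction made up 43.2%, 29.4%, 20.3% and 3.43%. Of the same 3 genes, 2 had all samples above the uninjured range at day 3 (19.8% of all genes), 1 at day 7 (Ncam1; 7.25%), 3 at day 14 (7.67%) and 3 at day 21 (5.26%). None of the 4 tested genes was called lower at any time against uninjured muscle. Among the 6 comparisons between time points there were 3 calls, all against day 3: Hdac4 at day 14, where 18.7% of genes were called, and Hdac4 and Ncam1 at day 21, where 25.5% were. The share of genes called was 0.0478% between days 7 and 3, 0.335% between days 14 and 7, 2.25% between days 21 and 7, and 0 between days 21 and 14, where limma gave 909 genes an unadjusted p under 0.05. The 4 comparisons with uninjured muscle share its 5 samples. Of the 4 day 21 calls, Runx1 included, 0 remained with no filter on low values, 1 (Gadd45a) under TPM or on the reads counted in each sample, 2 (Gadd45a, Ncam1) with voom weights and 1 (Gadd45a) without D21 replicate 2. Scaling also set the balance of calls over all genes: under TPM 6868 were higher and 322 lower at day 3, against 3417 and 2899 in the deposited FPKM.

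Hdac9, the other deacetylase of the set, was low in every group. Its FPKM was 0.256, 0.242, 0.262, 0.421 and 0.419 in uninjured muscle and 0.297, 0.309, 0.269, 0.347 and 0.240 at day 3. At day 7 it ran from 0.0881 over a median of 0.219 to 0.315, and at day 14 from 0.0673 over 0.172 to 0.436. At day 14, 5 of 6 samples lay below the uninjured range and replicate 1 above it, and at day 7, 4 of 6 lay below. At day 21 the samples had 0.279, 0.271, 0.272, 0.231 and 0.531, near the uninjured level apart from replicate 5. The order of means was uninjured (0.320 ± 0.0918, SD, n = 5), day 21 (0.317 ± 0.121, n = 5), day 3 (0.292 ± 0.0405, n = 5), day 7 (0.202 ± 0.0869, n = 6) and day 14 (0.195 ± 0.132, n = 6), and injured groups were not tested against each other. Exact two-sided permutation tests of mean log2(FPKM + 1) gave p = 0.548, 0.0736, 0.0952 and 0.960 at days 3, 7, 14 and 21. Without D14 replicate 1 the exact permutation p at day 14 was 0.00794, and without D7 replicate 5 it was 0.0238 at day 7. Under TPM the difference changed sign at days 3, 7 and 21, to 0.17, 0.024 and 0.025. The scaling also decided which of these passed 0.05: at day 3 the exact permutation p was 0.0397 under TPM and 0.0476 on own read totals (0.13), both for a higher level, and 0.00794 with quantile normalization for a lower one (-0.19). With quantile normalization Hdac9 was also lower at day 7 (-0.29, exact p 0.00433) and day 14 (-0.28, exact p 0.0173), so no direction is given for Hdac9. These values rested on 16 to 161 reads per sample.

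Dach2, the corepressor that Hdac4 is known to repress, was the lowest of the set. Uninjured samples had 0.320, 0.0883, 0.0691, 0.115 and 0.132 FPKM, of which replicate 1 stood apart. Day 3 samples had 0.131, 0.0620, 0.104, 0.0267 and 0.0238, and day 21 samples 0.0480, 0.0304, 0.0786, 0 and 0.0454. At day 7 the range was 0.00755 to 0.0993 with a median of 0.0460, and at day 14 it was 0.0118 to 0.132 with a median of 0.0305. Of the injured samples 3 of 5, 4 of 6, 4 of 6 and 4 of 5 lay below the lowest uninjured one at days 3, 7, 14 and 21, and none above the highest. The order of means was uninjured (0.145 ± 0.101, SD, n = 5), day 3 (0.0695 ± 0.0473, n = 5), day 14 (0.0582 ± 0.0572, n = 6), day 7 (0.0514 ± 0.0385, n = 6) and day 21 (0.0405 ± 0.0286, n = 5). Exact two-sided permutation tests gave p = 0.127, 0.0346, 0.0866 and 0.0159, where the smallest p the design allows is 0.00794 for 5 against 5 and 0.00433 for 6 against 5. These 4 tests and the 4 of Hdac9 are not adjusted over genes. At day 21 the ratio of mean FPKM was 0.280, and the p was 0.0159 to 0.0317 with any 1 sample left out, while at day 7 leaving out any of 7 samples took the p above 0.05. The day 7 difference of -0.12 became -0.068 under TPM (exact permutation p 0.143) and -0.077 on own read totals (0.104). A sample held 0 to 42 reads of Dach2, and the 0 of D21 replicate 4 allows up to 0.0202 FPKM (3 reads), counting error only.

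Day 7 was the time of the widest spread between samples for Hdac4, Gadd45a, Runx1 and Ncam1, whereas Hdac9 and Dach2 spread most at day 14 (coefficients of variation of 67.6% and 98.2%, against 43.1% and 74.9% at day 7). Replicates 1, 2 and 4 carried Hdac4 between 5.92 and 6.42 FPKM together with Gadd45a between 117 and 192. Replicates 3 and 6 had Hdac4 (1.75 and 1.87), Gadd45a (9.42 and 13.9) and Runx1 (0.254 and 0.440) near the uninjured levels. Replicate 5 combined the lowest Hdac4 of the whole set of samples (1.18) with Runx1 at 4.24 and Ncam1 at 3.42, that is, with the day 3 pattern of high Runx1 and Ncam1 beside low Hdac4. Of the fibre markers summed (Acta1, Ckm, Myh4, Tnnt3, Pvalb, Mylpf), replicates 3 and 6 had 98786 and 90113 FPKM, within or above the uninjured range of 82213 to 97542, and the other day 7 samples 26404 to 55103. The 7 myeloid markers summed to 2007 FPKM in replicate 5 and to 45.7 to 411 in the other 5. Without D3 replicate 5 and D7 replicate 5 together, the calls of the 4 tested genes against uninjured muscle were the same, and Ncam1 was lower at day 7 than at day 3 by -1.0 (limma adjusted p 0.0252), which was no call with all samples (-0.79). The part of the marker levels in the results at day 7 was not tested.

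**Figure D3:**
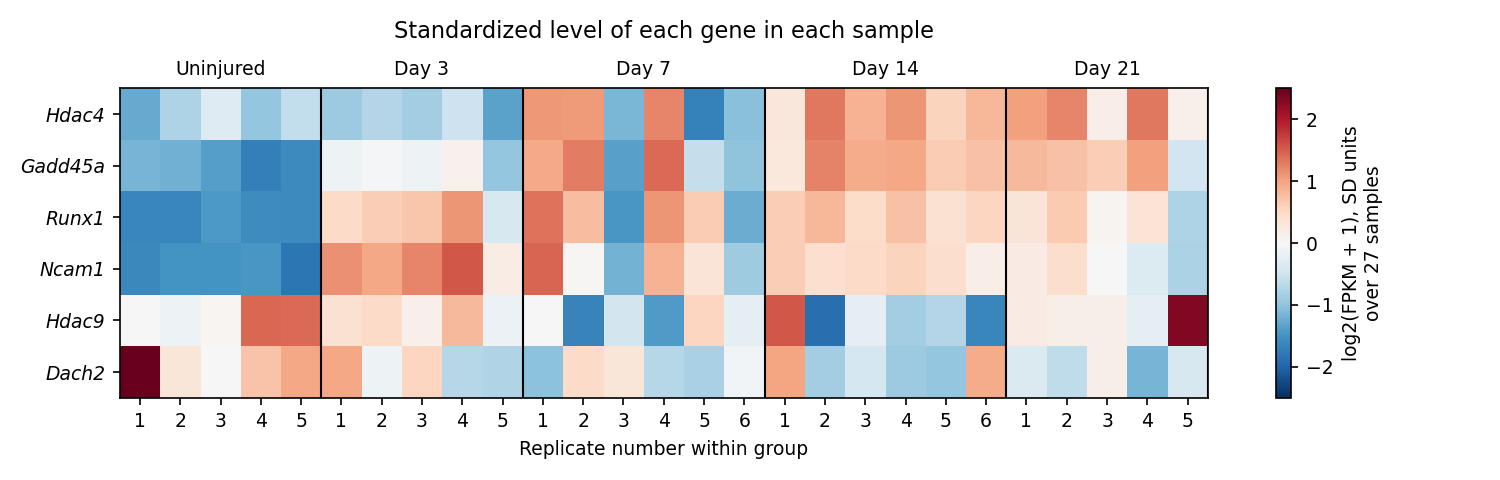
Level of each of the 6 genes (rows) in each sample (columns, replicate number within group) as log2(FPKM + 1) in standard deviations from the gene's mean over the 27 samples, with colours limited to 2.5 either way. Day 7 replicates 3 and 6 are blue for Hdac4, Gadd45a, Runx1 and Ncam1 like the uninjured samples. Among these genes day 7 replicate 5 is blue for Hdac4 and Gadd45a but not for Runx1 and Ncam1.

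Deviations from the group means, over the 27 samples as a description, were shared in part by the genes that rose. Pearson's r was 0.925 for Runx1 with Ncam1, 0.876 for Hdac4 with Gadd45a and 0.849 for Runx1 with Gadd45a, all measured in the same libraries, with the widest deviations at day 7. It was 0.733 for Gadd45a with Ncam1, 0.692 for Hdac4 with Runx1 and 0.591 for Hdac4 with Ncam1. Signs matched in 15 (Hdac4 with Ncam1) to 22 (Hdac4 with Gadd45a) of the 27 samples, and in 17 for Runx1 with Ncam1. Hdac9 went the other way from Gadd45a (r = -0.532) and Hdac4 (-0.468). D3 replicate 5 was the lowest of its group for all 6 genes. D21 replicate 5 was the lowest of its group for Hdac4, Gadd45a, Runx1 and Ncam1 and the highest for Hdac9.

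Cell type markers differed from uninjured muscle in either direction or not at all. In the deposited FPKM limma called all 6 fibre markers lower at day 3 and genes of other lists higher. Of the 6 fibre markers, 3 were called lower at day 3 under TPM, 4 on own read totals and 2 with quantile normalization. In bulk RNA a change in the number of cells of a type cannot be told apart from a change in RNA per cell. The 6 fibre markers were the most abundant genes of the lists, and their sum lay between 20843 and 62113 FPKM at day 3 and between 70760 and 105004 at day 21. Of the 7 myeloid markers, of which Adgre1, Itgam and Ptprc entered the test only through injured samples, 7, 6, 2 and 0 were called higher by limma at the 4 times (7, 7, 3 and 0 at an unadjusted p under 0.05), with sums of 16.2 to 24.8 FPKM uninjured and then 313 to 2144, 45.7 to 2007, 43.6 to 103 and 31.1 to 57.0. Myh3 and Myh8, the embryonic and perinatal myosins of newly formed fibres, summed to 0.421 to 1.62 FPKM in uninjured muscle and then to 64.6 to 80.0, 0.845 to 105, 6.83 to 30.8 and 3.90 to 9.34. Both were called higher by limma at days 3, 7 and 14. At day 21 neither was called (1 at an unadjusted p under 0.05), with differences of 1.38 for Myh3 and 1.75 for Myh8 beside 1.68 for Runx1 and 1.27 for Ncam1. The satellite cell and myoblast markers (4 genes) summed to 21.8 to 31.1 uninjured and 40.5 to 126, 28.6 to 100.4, 61.7 to 107 and 33.8 to 68.6 at days 3, 7, 14 and 21, of which 3, 1, 1 and 1 were called higher by limma. Myod1, a regulator of myoblasts, was called each time, but 0 of the 4 were called at day 21 under TPM or on own read totals. Cdh15, the adhesion molecule M-cadherin, differed by 1.01 at day 3 (limma adjusted p 0.00812) and, not called, by -0.70 at day 14 and -0.64 at day 21. The part of these cells in the results was not tested.

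Schwann cells, another source of Ncam1, gave no calls: of 4 markers (Mbp, Sox10, Ngfr, S100b) 0 were called by limma at any of the 4 times (0 at an unadjusted p under 0.05), while under TPM 1 was called higher at each of days 3 and 7 and on own read totals 1 at day 3. Their sum was 2.59 to 14.9 FPKM in uninjured muscle and then 2.80 to 4.72, 1.52 to 79.2, 3.39 to 7.05 and 2.83 to 9.83 at the 4 times. The part of Schwann cells in the level of Ncam1 was not tested. Fibro-adipogenic markers (4 genes) summed to 30.3 to 76.2 FPKM uninjured and 52.5 to 124 at day 3, with 2, 3, 2 and 0 called higher by limma at the 4 times (2, 4, 2 and 1 at an unadjusted p under 0.05). Lymphoid markers stayed low, with sums of at most 7.62 FPKM, 1 of 5 tested and 0 called by limma (0 at an unadjusted p under 0.05), and Cd8a, Ncr1 and Cd4 were at 0 in 12, 9 and 8 of the 27 samples.

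Genes known to be induced by denervation or to lie downstream of Hdac4 were counted as a list of 9, all tested, chosen with earlier results of these data known. Of these 5, 6, 6 and 5 were called higher and 2, 2, 2 and 1 lower at days 3, 7, 14 and 21, with a median difference of 0.83, 0.89, 1.47 and 1.08 against 0.01, 0.03, 0.02 and 0.01 over all genes tested. The share of all genes tested that was called higher fell from 23.4% at day 3 to 1.74% at day 21. The 5 genes called higher at day 21 became 1 under TPM and 4 on own read totals or with quantile normalization. At the earlier times 5 or 6 were called higher under each of these scalings. Of the acetylcholine receptor subunits, Chrng, the subunit of the embryonic receptor, had a difference of 3.76, 2.22, 3.00 and 3.10 at the 4 times, Chrna1 3.04, 2.57, 3.25 and 2.62, and Chrnd 2.32, 2.16, 3.04 and 2.55. All 3 passed the limma test at each time, with the adjusted p highest at 0.0146 for Chrna1 at day 21; Chrng entered the test through injured samples. Chrnb1, another subunit, differed by 0.49 at day 3, not called (limma adjusted p 0.105), and rose by 0.78, 1.47 and 1.08 afterwards. Cdkn1a, a cell cycle inhibitor gene, rose by 2.97, 2.55, 2.47 and 2.30, more than Chrnd at days 3 and 7. Under TPM, on own read totals and with quantile normalization Chrng, Chrna1 and Chrnd were also higher at every time, although Chrna1 and Chrnd were not called at day 21 under TPM (limma adjusted p 0.0928 and 0.0705). The genes called lower in the deposited FPKM were Fbxo32, a ubiquitin ligase of atrophying muscle (-1.34, -0.79, -1.13 and -1.19), and Atf4, a stress-response factor (-0.83, -0.80, -0.71 and, not called, -0.44). Neither was called at any time under TPM or on own read totals, and under TPM Atf4 at day 3 (-0.014) and Fbxo32 at day 7 (-0.088) were near 0. Quantile normalization lost Fbxo32 at days 7 and 21 (limma adjusted p 0.119 and 0.0605) and Atf4 at day 14 (0.0502). Trim63, the other atrophy ubiquitin ligase, had a mean of 66.5 FPKM uninjured and 57.2, 66.5, 50.4 and 51.5 afterwards and was called at no time.

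The relatives and partners of the class IIa HDACs held no gene that was called higher in the deposited FPKM. Of 10 genes (Hdac5, Hdac7, Mef2a, Mef2c, Mef2d, Dach1, Six4, Eya1, Eya3 and Eya4), all tested, 0 were called higher by limma at any time (1, at day 14, at an unadjusted p under 0.05), and 4, 1, 1 and 0 were called lower at days 3, 7, 14 and 21, with medians of -0.32, -0.16, -0.05 and -0.10. These directions turned with the scaling: under TPM the medians were 0.30, 0.35, 0.30 and 0.0455, with 2, 3, 1 and 0 genes called higher and 0 lower, beside medians of 0.51, 0.48, 0.29 and 0.12 over all genes tested. Eya1, a transcriptional cofactor with a role in fast fibres, differed by -0.78 at day 3 (limma adjusted p 0.000422) and -0.44 at day 21 (0.129), and Mef2c, a target of class IIa HDAC repression, by -0.69 (0.0107) and -0.26 (0.538). Under TPM the day 3 differences were -0.30 and 0.094 for Eya1 and Mef2c, and neither was called. Hdac5, at 9.63 FPKM uninjured the most abundant of the class IIa deacetylases measured, had a mean of 7.01 at day 3 and 7.24 at day 14, when Hdac4 had 5.36.

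Among the closest relatives of the other members, Gadd45b was lower where Gadd45a was higher. Gadd45b had 38.9 FPKM uninjured against 18.5, 13.7, 17.2 and 21.8 at days 3, 7, 14 and 21, with differences of -1.03, -1.54, -1.21 and -0.82, of which the first 3 passed the limma test (adjusted p 0.00231, 0.000123 and 0.00205) and the last did not (0.0764); the sign was the same under TPM, on own read totals and with quantile normalization, but day 3 was not called under TPM (-0.23, limma adjusted p 0.458) or on own totals (-0.39, 0.176). Gadd45g had 47.5 FPKM uninjured and 122 at day 21, a difference of 1.27 that missed the threshold (limma adjusted p 0.0680). Runx2 was higher at day 3 by 0.70 and at day 7 by 0.33 at a mean FPKM of 0.808 and 0.390. It had entered the test only through injured samples, and with quantile normalization the day 7 difference was 0.16 (limma adjusted p 0.314). In the deposited FPKM the partner Cbfb was called at no time. Of 5 relatives and modifying enzymes of Ncam1, only the polysialyltransferase St8sia2 passed the filter, through its injured samples, and it was higher at day 3 by 1.29 (limma adjusted p 0.000486), when Ncam1 was highest, and not called later.

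**Figure D4:**
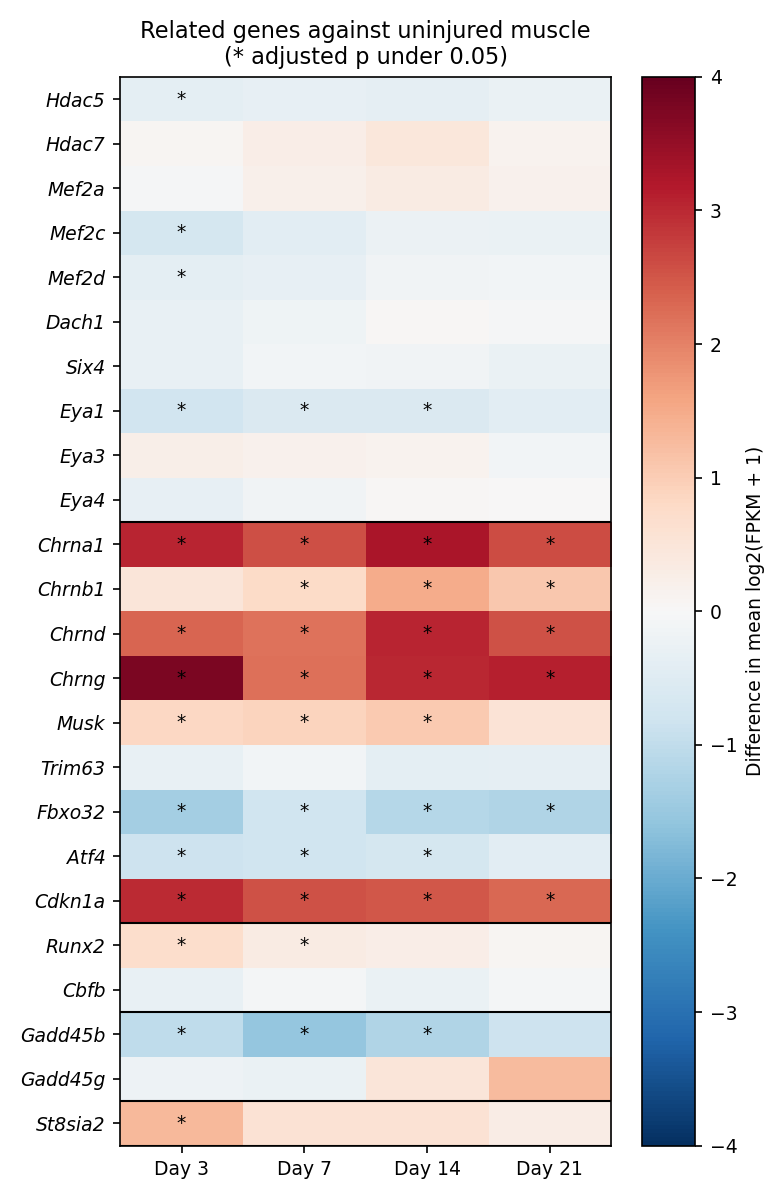
Difference from uninjured muscle in mean log2(FPKM + 1) (colour) for the tested genes of the related lists (rows) at each day after injury (columns), with a star where the limma adjusted p was under 0.05. The acetylcholine receptor genes Chrna1, Chrnd and Chrng are red at all 4 times (Chrng 3.76 at day 3), while the partners of the class IIa HDACs in the top block have no star on a positive value.

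The genes nearest to a member in profile were found by the root mean square difference of log2(FPKM + 1), each gene standardized over the 27 samples, as a description. For Hdac4 they were Igfn1 (0.396 SD), Gm34006 (0.416) and A430010J10Rik (0.420), against a median of 1.42 over all genes tested. For Runx1 they were Chrna1 (0.238), Cdkn1a (0.277) and Ttc9 (0.294), the first 2 being genes of the denervation list. For Gadd45a they were Cpne2 (0.271) and the keratin genes Krt18 (0.272) and Krt8 (0.330); Krt18 had 0.185 FPKM uninjured and 130.3 at day 14. Ncam1 lay near Mymk, the gene of the fusion protein myomaker (0.280), and Runx1 (0.348). Among the members, Hdac4 was nearer to Gadd45a (0.521) than to Runx1 (0.907) or Ncam1 (1.12).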

How the data were processed

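PolyA RNA of 27 tibialis anterior samples was sequenced by the authors from non-directional libraries. Per the submitters' processing notes, reads were aligned with HISAT2 2.0.5 and counted with featureCounts 1.5.0-p3, and the authors deposited 1 table of FPKM per gene. The genome build is not given in the sources used here, and the gene coordinates matched GENCODE M21 (GRCm38) for all 6 genes. FPKM times gene length gave whole reads for 100% of values above 0 within 0.01, with denominators 0.747 to 1.48 times each sample's own total, so a scaling between samples is built into the deposited values. The scaling differed by group: the mean denominator was 0.782 times the own total in uninjured muscle. At days 3, 7, 14 and 21 it was 1.247, 1.175, 1.045 and 0.897. Ratios of deposited FPKM between groups include this factor. Depth was 14376395 to 24436763 reads per sample, and 0 columns of other samples were present.

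Groups and replicate numbers came from the sample titles. The values were transformed to log2(FPKM + 1), and the 14630 genes reaching an FPKM of 0.5 in 5 or more samples entered one limma 3.58.1 model (R 4.3.3, variance trend, 27 samples). Tests were two-sided, and p-values were adjusted by Benjamini-Hochberg over all genes of a comparison and called under 0.05. Hdac9 and Dach2, under the filter, were compared with exact two-sided permutation tests (scipy 1.17.1). The fit was tested on simulated data. Same-numbered samples of different groups deviated together no more than others (r from -0.521 to 0.566, median -0.00315, over 51 pairs of samples), so the numbers were not used as pairs. Replicates differed by more than sampling noise and each was counted as 1 sample.

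The members and gene lists were chosen with earlier results of these data known. Text names all 6 members and, for each list, up to 3 genes called against uninjured muscle with the largest difference. For each tested member it names up to 3 genes nearest in profile. Other names (Fbxo32, Atf4, Trim63, Gadd45g, Cbfb, Chrnb1, Cdkn1a, Cdh15) were added after their values were seen. Some genes of the lists are not reported here and are left out of the counts and sums. Promoter windows are from RefSeq (GRCm38.p6). Alternatives were pseudocounts of 0.1 and 0.5, no filter or a minimum FPKM of 1, quantile normalization, FPKM rescaled to a common sum (TPM), each sample's own total of reads, voom weights on the recovered reads, sample quality weights, limma without the trend, only the compared groups, blocks by replicate number or letter, and leaving out each sample, or D3 replicate 5 and D7 replicate 5 together.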

Additional observations from a re-analysis of the deposited data

Results flagged for a closer look

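Of 30 groups of samples (6 genes in 5 groups), 5 had a sample far from the rest by Dixon's test, where chance gives about 1 in 20. Gadd45a was far below the other samples in D3 replicate 5 (14.7 FPKM) and in D21 replicate 5 (25.5 FPKM). Hdac9 was far above them in D21 replicate 5 (0.531 FPKM), so this sample stood apart for both genes. Runx1 was far above the other uninjured samples in uninjured replicate 3 (0.269 FPKM), and Dach2 in uninjured replicate 1 (0.320 FPKM).

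In the deposited FPKM the difference from uninjured muscle was not the same at all times for Hdac4 and Ncam1, by a limma test of one time point against another. Hdac4 was higher by 1.03 at day 14 than at day 3 and by 1.0 at day 21 than at day 3 in mean log2(FPKM + 1). Ncam1 differed by -0.96 at day 21 from day 3. Of all genes tested, 18.7% were called between days 14 and 3 and 25.5% between days 21 and 3. Under TPM both Hdac4 differences were lost (limma adjusted p 0.107 and 0.248), and on own read totals the one at day 21 (0.118). The Ncam1 difference was lost without D3 replicate 4, without D21 replicate 5 or with no filter.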

How the results depend on the processing

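Runx1, whose calls against uninjured muscle add nothing to its values, is included in the counts of calls that follow. Calls at days 3, 7 and 14 kept to within 1.5 times their count of members (3, 3 and 4) under every alternative run. Day 3 fell to 2 with no filter. Under TPM 6868, 6304 and 1678 of all 14630 genes tested were called higher at these 3 times. The 4 calls at day 21 became 0 with no filter (limma, 5 of 6 genes with unadjusted p under 0.05). They became 1 under TPM, 1 with own read totals, 2 with voom weights and 1 to 4 with 1 sample left out (1 without D21 replicate 2). The 3 calls between time points became 1 under TPM, 8 with sample quality weights and 2 to 4 with 1 sample left out. The 2 exact permutation calls of the genes under the filter (8 tests) became 7 with quantile normalization and 1 to 4 with 1 sample left out. With 1 sample left out, day 3 had 2 to 3 calls, day 7 had 3 and day 14 had 4. Signs turned as follows. Hdac4 at day 3 became 0.52 (TPM) and 0.40 (own totals), and -0.12 to 0.018 with samples left out. Hdac9 became 0.17 (TPM, exact permutation p 0.0397) and 0.13 (own totals, 0.0476) at day 3, 0.024 (TPM) at day 7, and 0.025 (TPM), 0.031 (own totals) and -0.060 to 0.022 with samples left out at day 21. Runx1 between days 14 and 3 became -0.19 (TPM), -0.12 (own totals), -0.13 without both D3 replicate 5 and D7 replicate 5, and -0.13 to 0.24 with 1 sample left out. Runx1 between days 21 and 7 became 0.17 (pseudocount 0.1), 0.0039 (pseudocount 0.5), 0.18 (voom), 0.020 (block by letter), 0.016 without both replicates 5, and -0.40 to 0.16 with 1 left out. With 1 left out, Runx1 between days 7 and 3 ran from -0.53 to 0.023 (-0.62 without both replicates 5), Ncam1 between days 21 and 7 from -0.39 to 0.065 and Hdac4 between days 21 and 14 from -0.12 to 0.060 (0.018 with the block by letter); Hdac4 at day 3 without both replicates 5 was 0.018. The cause was not tested. Replicate numbers as a block gave 3, 3, 4 and 4 calls at days 3, 7, 14 and 21 and 4 between time points, the added one being Gadd45a between days 14 and 3 (limma adjusted p 0.0233), and raised the day 21 calls over all genes from 502 to 795 (1233 by letter). Over all genes the day 21 calls were 120 with no filter, 49 under TPM and 2471 with sample quality weights. Depth limits Dach2 most, at 0 to 42 reads per sample.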
